A study of Mus musculus with 20 samples.

Results

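Transcripts of 46 cell cycle genes were examined in RNA sequencing of whole mouse adrenal glands. The genes were chosen by name, as genes known for DNA replication or mitosis, with earlier results of these data known. All 46 were found among the 47729 genes of the expression table. They comprise 16 replication genes (Tk1, Tyms, Rrm1, Rrm2, Pcna, Mcm2 to Mcm7, Cdc45, Cdc6, Cdt1, Gins1 and Gins2) and 24 mitotic genes (Mki67, Top2a, Tpx2, Bub1, Bub1b, Ube2c, Ccnb1, Ccnb2, Ccna2, Cdk1, Cdc20, Aurka, Aurkb, Plk1, Birc5, Cenpa, Cenpe, Cenpf, Kif11, Kif20a, Kif23, Nusap1, Prc1 and Ttk). The remaining 6 are the cyclin E genes Ccne1 and Ccne2 and the transcription factor genes Foxm1, Mybl2, E2f1 and E2f8. Counts of calls among the 46 genes, and among the further lists below, are therefore descriptions and carry no test of their own.

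The study asked what inactivation of the clock gene Bmal1 changes in adrenals of females and males. It had 5 libraries of control females (1.5 to 3.4 months old), 5 of Bmal1 KO females (2.4 to 3.4 months), 6 of control males (2.9 to 4.7 months) and 4 of Bmal1 KO males (2.9 to 3.7 months). The genotype labels are SCC::Cre_CTRL for controls and SCC::Cre_BMAL1 KO for knockouts, so both carry the driver SCC::Cre, whose name refers to the side-chain cleavage enzyme of steroid-producing cells. The sources used here do not say what controls carry at the Bmal1 locus, nor give the strain, the time of day of collection or any pooling of animals. Since no label says that libraries came from separate animals, p-values reflect the spread among these libraries only, part of which may be technical. Below, counts of females, males or animals are counts of libraries.

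Libraries held 13421985 to 26742820 reads. Values are normalised read counts, that is, reads divided by 1 size factor per library. Markers of both parts of the gland were present throughout: Cyp11a1, of steroid-producing cortical cells, read at least 59643, and Chga, of medullary chromaffin cells, at least 32520. Arntl, the symbol of Bmal1 in the table, read 905 ± 71.8 (SD, n = 5) in females labelled Bmal1 KO and 618 ± 147 (n = 5) in control females. The male values were 923 ± 69.8 (n = 4) and 663 ± 238 (n = 6), so its total was not reduced by the labelled genotype. A sum of reads over the whole gene does not check a deletion of some of its exons, so the genotypes rest on the labels.

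Before a cell divides, it copies its DNA in S phase and separates the copies in mitosis. Thymidine kinase, thymidylate synthase and ribonucleotide reductase supply DNA building blocks, CDC6 and CDT1 load the MCM ring onto origins, CDC45 and the GINS complex turn that ring into the active helicase, and PCNA clamps the polymerases to DNA. E2F factors switch most of these genes on as cells leave G1. Mitotic genes follow later in the cycle, under B-MYB, FOXM1 and the MuvB complex, which binds the CHR element, often together with NF-Y at nearby CCAAT boxes. The adrenal cortex is renewed from progenitor cells at its outer edge, and in mice this turnover is known to be faster in females.

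The promoters of both classes were compared because the classes differed in the expression data. RefSeq windows of 300 bases (250 before to 50 after the annotated start, GRCm38.p6) were matched by symbol for 37 of the 46 genes, and those of Aurkb, Ccna2, Ccne2, Foxm1, Gins1, Gins2, Kif20a, Mcm4 and Tpx2 were not matched. Motifs were searched on both strands as exact letters: TTCCCGC or TTGGCGC for E2F, TTTGAA for CHR, CCAAT, and CACGTG for the E-box to which clock factors bind. An E2F match can overlap a CCAAT match (GCGCCAA followed by T). Below are the 150 bases before the start, 5′ to 3′ on the gene's strand, with matches in capitals: 3 replication genes with E2F matches, 3 mitotic genes with CHR matches, and the mitotic genes Bub1, which differed by genotype in males, and Ttk, which differed most by sex.
Mcm6 (chr1:128359706-128359855, minus strand): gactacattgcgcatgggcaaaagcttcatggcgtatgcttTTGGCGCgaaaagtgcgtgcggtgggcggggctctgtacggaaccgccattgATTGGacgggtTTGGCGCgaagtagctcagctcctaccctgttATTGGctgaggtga
Mcm5 (chr8:75109359-75109508, plus strand): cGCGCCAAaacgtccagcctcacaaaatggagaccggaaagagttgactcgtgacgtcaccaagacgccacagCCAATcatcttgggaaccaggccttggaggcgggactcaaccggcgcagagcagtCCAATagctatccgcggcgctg
Rrm1 (chr7:102441545-102441694, plus strand): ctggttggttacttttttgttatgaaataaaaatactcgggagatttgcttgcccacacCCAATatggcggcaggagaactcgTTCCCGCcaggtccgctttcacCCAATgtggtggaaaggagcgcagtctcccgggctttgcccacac
Mki67 (chr7:135716380-135716529, minus strand): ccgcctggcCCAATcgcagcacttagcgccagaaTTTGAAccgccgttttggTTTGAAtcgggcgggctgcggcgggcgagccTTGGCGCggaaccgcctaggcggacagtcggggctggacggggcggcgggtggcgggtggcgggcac
Top2a (chr11:99024190-99024339, minus strand): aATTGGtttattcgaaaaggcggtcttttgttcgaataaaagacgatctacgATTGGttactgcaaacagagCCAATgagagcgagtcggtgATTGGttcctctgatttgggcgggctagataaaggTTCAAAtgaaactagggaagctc
Kif11 (chr19:37376232-37376381, plus strand): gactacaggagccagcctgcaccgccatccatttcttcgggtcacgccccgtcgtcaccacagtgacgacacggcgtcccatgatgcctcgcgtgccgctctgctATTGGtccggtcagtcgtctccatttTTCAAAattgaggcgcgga
Bub1 (chr2:127831860-127832009, minus strand): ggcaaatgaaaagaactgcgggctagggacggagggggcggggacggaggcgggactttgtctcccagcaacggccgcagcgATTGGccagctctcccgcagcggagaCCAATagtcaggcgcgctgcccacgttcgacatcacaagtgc
Ttk (chr9:83834539-83834688, plus strand): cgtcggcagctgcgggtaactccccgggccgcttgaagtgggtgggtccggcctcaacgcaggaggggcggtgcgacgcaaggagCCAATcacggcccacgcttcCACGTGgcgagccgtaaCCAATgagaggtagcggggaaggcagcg

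An E2F match was present in 7 of 13 replication windows and 3 of 20 mitotic windows, against 7.79% of the windows of all 27025 genes. A CHR match was present in 2 of 13 replication windows and 15 of 20 mitotic windows, against 20.2% of all genes. Within 50 bases of the start, 14 of the 20 mitotic genes and 1 of the 13 replication genes had a CHR match, against 5.72% of all genes. CCAAT stood in 9 of 13 replication and 18 of 20 mitotic windows (41.1% of all genes), and all 15 mitotic genes with CHR also had CCAAT. The E-box stood in 1 window of each class, that of Tyms and that of Ttk (8.09% of all genes). Among further genes of the same pathways, E2F matches stood in 20 of 34 replication and 6 of 34 mitotic windows, and CHR matches in 6 and 24. In the stretches printed above, Mcm6 shows 2 E2F matches, Mki67 shows 2 CHR matches and 1 E2F match, and Bub1 shows CCAAT matches alone. Ttk shows the E-box between 2 CCAAT matches, and its window also holds a CHR match just after the start, outside the printed stretch. These are matches of letters, not measured binding sites.

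Females had higher levels of cell cycle transcripts than males, and mitotic genes differed by more than replication genes. In controls, 26 of the 46 genes were higher in females and none was lower (limma, Benjamini-Hochberg adjusted p under 0.05 over 26612 genes), against 13.5% of all genes called higher and 26.4% called in either direction. The calls fell on 17 of 24 mitotic genes, with log2 differences of 0.73 to 2.87, and on 9 of 16 replication genes, with differences of 0.28 to 0.61. Among Bmal1 KO animals, again 26 genes were higher in females and none lower (12.1% of all genes called higher, 22.8% in either direction): 14 mitotic genes (0.61 to 3.45), 10 replication genes (0.25 to 0.61), Ccne2 and E2f1. The same 22 genes, 13 mitotic and 9 replication, were called in both genotypes. The median log2 difference in controls was 1.11 over the mitotic genes and 0.37 over the replication genes, against -0.05 over all genes tested. In Bmal1 KO animals it was 0.86 and 0.46, against -0.07. A difference of at least 1 on the log2 scale was seen for 14 mitotic genes in controls and 5 in Bmal1 KO animals, and for no replication gene in either. In whole-gland RNA, more cells of a type and more RNA per cell cannot be told apart.

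**Figure D1:**
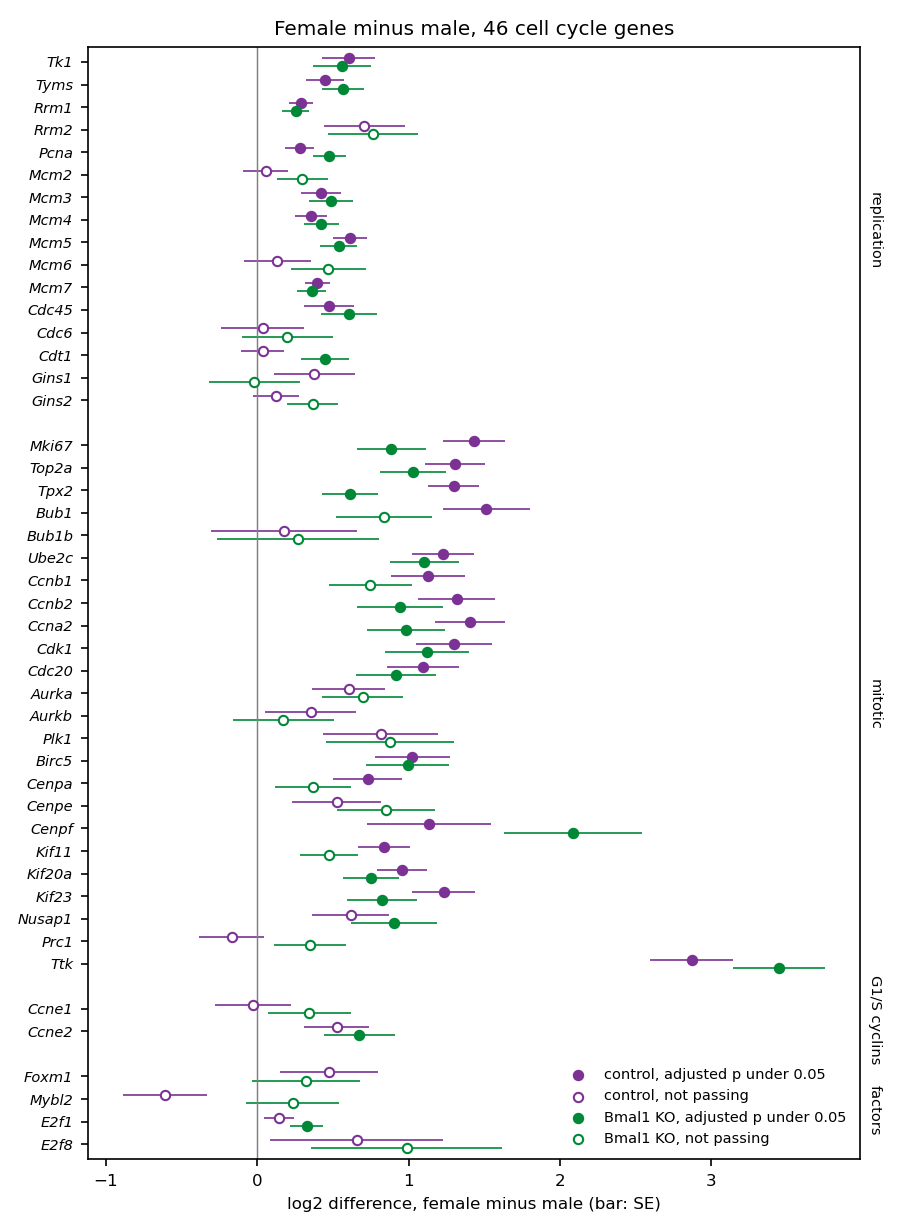
Female minus male log2 difference for each of the 46 genes (x axis, log2 scale), in controls (purple) and Bmal1 KO animals (green), with SE as bars and filled points where the adjusted p was under 0.05. Replication genes lie below 1, most mitotic genes lie further right, and Ttk is at 2.87 and 3.45.

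Ttk (chr9:83834689-83872389, plus strand, GRCm38), which encodes the spindle checkpoint kinase MPS1, had the largest sex difference of the 46 genes. It read 189, 137, 127, 104 and 165 in control females, 361, 280, 242, 323 and 260 in Bmal1 KO females, and 27.9, 23.2, 41.3 and 16.2 in Bmal1 KO males. Control males ran from 9.22 through a median of 20.04 to 36.9. Every female library was above every male library. The log2 difference was 2.87 ± 0.27 (SE, limma adjusted p = 1.32e-07) in controls and 3.45 ± 0.30 (adjusted p = 4.89e-08) in Bmal1 KO animals, on at most 41.3 normalised reads in any male library.

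Among mitotic genes, Bub1 (chr2:127801122-127831865, minus strand), a kinase of the spindle checkpoint, had the next largest difference in controls. It read 96.7, 34.0, 95.4, 60.7 and 47.3 in control females, and 13.8, 21.1 and 39.7 (lowest, median and highest) in control males. One control male library, at 39.7, reached into the female range. The log2 difference was 1.51 ± 0.29 (SE, limma adjusted p = 0.000468), and in Bmal1 KO animals it was 0.84 ± 0.32 (adjusted p = 0.0624). Cenpf (chr1:189640606-189688086, minus strand), a kinetochore protein, was second in Bmal1 KO animals, with 341, 408, 191, 486 and 252 in females and 31.1, 112, 131 and 65.8 in males. The groups did not overlap, and the log2 difference was 2.08 ± 0.46 (limma adjusted p = 0.00206). In controls Cenpf differed by 1.13 ± 0.41 (adjusted p = 0.0465), a call that was lost on leaving out any library but control females 1 and 2 and control male 4 (adjusted p 0.0649 to 0.131). Mki67, the proliferation antigen Ki-67, read 560 ± 161 (SD, n = 5) in females and 208 ± 61.2 (n = 6) in males among controls, a log2 difference of 1.43 ± 0.20 (SE, limma adjusted p = 2.18e-05). Top2a, the topoisomerase that untangles chromosomes, read 473 ± 143 (n = 5) and 187 ± 38.4 (n = 6), and differed by 1.31 ± 0.20 (limma adjusted p = 3.92e-05). For both genes the control groups did not overlap.

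Replication genes differed by less but with a smaller spread. Mcm5 (chr8:75109569-75128439, plus strand), a subunit of the helicase ring, read 456, 370, 454, 474 and 335 in control females and 223, 278 and 317 (lowest, median and highest) in control males. The groups did not overlap, and the log2 difference was 0.61 ± 0.11 (SE, limma adjusted p = 0.000307). Tk1, thymidine kinase, read 163, 117, 221, 179 and 122 in control females and 79.1, 99.3 and 135 (lowest, median and highest) in control males. These groups overlapped, with a log2 difference of 0.60 ± 0.17 (limma adjusted p = 0.0135). In Bmal1 KO animals, Cdc45, which completes the helicase, read 128, 141, 97.2, 145 and 173 in females and 96.4, 94.6, 85.8 and 76.6 in males. All females were above all males, by 0.61 ± 0.18 (limma adjusted p = 0.0205), and the call was lost without Bmal1 KO female 5 (adjusted p = 0.0579) or Bmal1 KO male 4 (0.0686). Tyms, thymidylate synthase, read 404, 442, 373, 446 and 439 in Bmal1 KO females and 318, 253, 245 and 326 in Bmal1 KO males. It also separated the sexes, by 0.56 ± 0.14 (limma adjusted p = 0.00528).

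Genes of either class that passed in neither genotype numbered 12: Mcm2, Mcm6, Cdc6, Gins1, Gins2 and Rrm2 among replication genes, and Aurka, Aurkb, Bub1b, Cenpe, Plk1 and Prc1 among mitotic genes. Cdc6 and Mcm2, the genes of an MCM loader and of an MCM subunit, differed by 0.03 ± 0.27 (SE) and 0.06 ± 0.15 in controls. Prc1, which bundles microtubules in late mitosis, was the only mitotic gene with a log2 difference below 0 in controls (-0.17 ± 0.22, SE, limma adjusted p = 0.621). Bub1b, the spindle checkpoint protein BUBR1, spread from 38.5 to 395 among the 6 control males alone. Mybl2, which encodes B-MYB, passed in neither genotype, with a log2 difference of -0.61 ± 0.28 in controls (SE, limma adjusted p = 0.113). In Bmal1 KO animals Mybl2 went the other way, at 62.2 ± 14.0 (SD, n = 5) in females and 57.5 ± 31.4 (n = 4) in males. Foxm1 differed by 0.47 ± 0.32 (adjusted p = 0.312) in controls and 0.32 ± 0.36 (0.571) in Bmal1 KO animals.

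Groups that did not overlap gave a similar picture of the classes in controls only. There all females were above all males for 14 of the 46 genes, against 7.32% of all genes. These were 12 of 24 mitotic and 2 of 16 replication genes. In Bmal1 KO animals the sexes were apart for 24 genes, against 11% of all genes. Here 14 of 24 mitotic and 9 of 16 replication genes counted, so this measure did not set the classes apart. Ages differed between the sexes, and with age as a covariate 14 genes were called in controls, 11 of them mitotic and 3 replication, against 14.1% of all genes called in that fit. With only libraries of 2.4 to 3.7 months 16 were called, 13 mitotic and 3 replication, against 13.7% of all genes, and the median difference was 0.85 over mitotic and 0.32 over replication genes. In Bmal1 KO animals, leaving out 1 library at a time gave 16 to 24 called genes, with the lowest count without Bmal1 KO male 4.

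Other genes of the same pathways came from lists of 40 further replication and 40 further mitotic genes. In control females, 13.5% of all genes were called higher. From these lists, 10 replication genes were higher and 1 lower, and 26 mitotic genes were higher and 1 lower. The median log2 difference was 0.12 and 0.78. The replication genes with the largest differences were Uhrf1, which guides DNA methylation to new strands (0.86 ± 0.30, SE, limma adjusted p = 0.0417), and Pola1, the catalytic subunit of polymerase alpha (0.49 ± 0.14, adjusted p = 0.0158). Orc4, of the origin recognition complex, and Dut, which keeps uracil out of DNA, each differed by 0.34. The mitotic genes with the largest differences were the spindle pole gene Aspm (1.68 ± 0.47), Cdca3 (1.50 ± 0.32), the abscission gene Cep55 (1.44 ± 0.26) and the motor gene Kifc1 (1.41 ± 0.37). The condensin subunit gene Ncapd2 went the other way in controls (-0.87 ± 0.14, limma adjusted p = 7.88e-05) and in Bmal1 KO animals (-0.97 ± 0.15, adjusted p = 8.75e-05); it lies outside the rule for naming genes and was named after its values were seen. In Bmal1 KO animals, where 12.1% of all genes were called higher, 11 replication genes were higher and none lower. Among mitotic genes 17 were higher and 1 lower. The replication genes higher in females included Dut (0.58 ± 0.09, SE), the clamp loader gene Rfc3 (0.47 ± 0.11) and the flap nuclease gene Fen1 (0.41 ± 0.09). Cdkn3 (1.39 ± 0.41) and the cytokinesis gene Anln (1.26 ± 0.21) led the mitotic genes, followed by Cdca3 (1.25 ± 0.36) and Melk (1.23 ± 0.36).

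Among 22 genes of G1/S control, 8 were higher and 1 lower in control females, and the counts among Bmal1 KO animals were 6 and 1. Of all genes, 13.5% were called higher in control females and 12.1% in Bmal1 KO females. The cell cycle inhibitor gene Cdkn1c, which encodes p57, differed by 1.57 ± 0.21 (SE, limma adjusted p = 8.79e-06) in controls and 1.60 ± 0.23 (adjusted p = 3.12e-05) in Bmal1 KO animals. The inhibitor gene Cdkn1a, which encodes p21, differed by 1.09 ± 0.19 and 0.75 ± 0.21. The cyclin gene Ccnd3 (1.05 ± 0.08 and 0.90 ± 0.09) and the growth regulator gene Myc (0.97 ± 0.10 and 1.04 ± 0.11) also differed in both genotypes.

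Markers of some other cell types differed by sex. All 4 markers of the X-zone, an inner cortical layer that male mice lose at puberty, were called higher in females of both genotypes. Their summed level was 37664 to 137555 in control females and 32182 to 101825 in Bmal1 KO females, against 599 to 1247 in control males and 503 to 723 in Bmal1 KO males. Of 8 lymphocyte markers, 1 was called higher in control females and 3 in Bmal1 KO females, and none lower, against the 13.5% and 12.1% of all genes called higher. Their summed level was 136 to 407 in control females, 198 to 310 in Bmal1 KO females, 103 to 189 in control males and 86.2 to 255 in Bmal1 KO males. The T-cell marker Cd3e was at 0 in at least 1 control male. Of 10 markers of cortical cells, 5 were higher and 1 lower in control females, and 4 were higher in Bmal1 KO females. Of 7 endothelial markers, 1 was lower in control females and 2 in Bmal1 KO females. Of 7 macrophage markers, 1 was higher in control females and 1 lower in Bmal1 KO females. In Bmal1 KO females, 1 of 6 capsule and 1 of 5 Schwann and sustentacular markers were lower, and 1 of 9 chromaffin markers was higher. Of all 26612 genes tested, 3441 were called lower in control females and 2833 in Bmal1 KO females. With 5 to 9 markers per type, 1 or 2 calls are too few to read against the shares of all genes. The part of any of these cell types in the sex difference was not tested.

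By genotype, few of the 46 genes passed the test in limma, and no interaction of genotype and sex passed. The genes that passed were replication genes in females and mitotic genes in males, a split that did not hold across tools. The mitotic gene Ttk also passed in females with edgeR, limma-voom and DESeq2, and the replication gene Rrm1 passed in both sexes with DESeq2. In Bmal1 KO females, Mcm6 and Pcna were higher than in controls and no gene was lower, 2 of 46 against 1.75% of all genes called in either direction and 1.12% called higher. In Bmal1 KO males, Tpx2 and Bub1 were higher and no gene was lower, 2 of 46 against 1.33% of all genes in either direction and 0.763% higher. The median log2 difference in females was 0.33 over the 16 replication genes and 0.33 over the 24 mitotic genes, against 0.00 over all genes. In males it was 0.29 and 0.50, against 0.00. Differences were above 0 for 44 of the 46 genes in females (49.9% of all genes) and 40 in males (50% of all genes). An unadjusted p under 0.05 was reached by 14 of the 46 in females and 17 in males, against 11.7% and 10.9% of all genes. The 46 genes are not independent of each other, so these counts carry no test of their own.

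**Figure D2:**
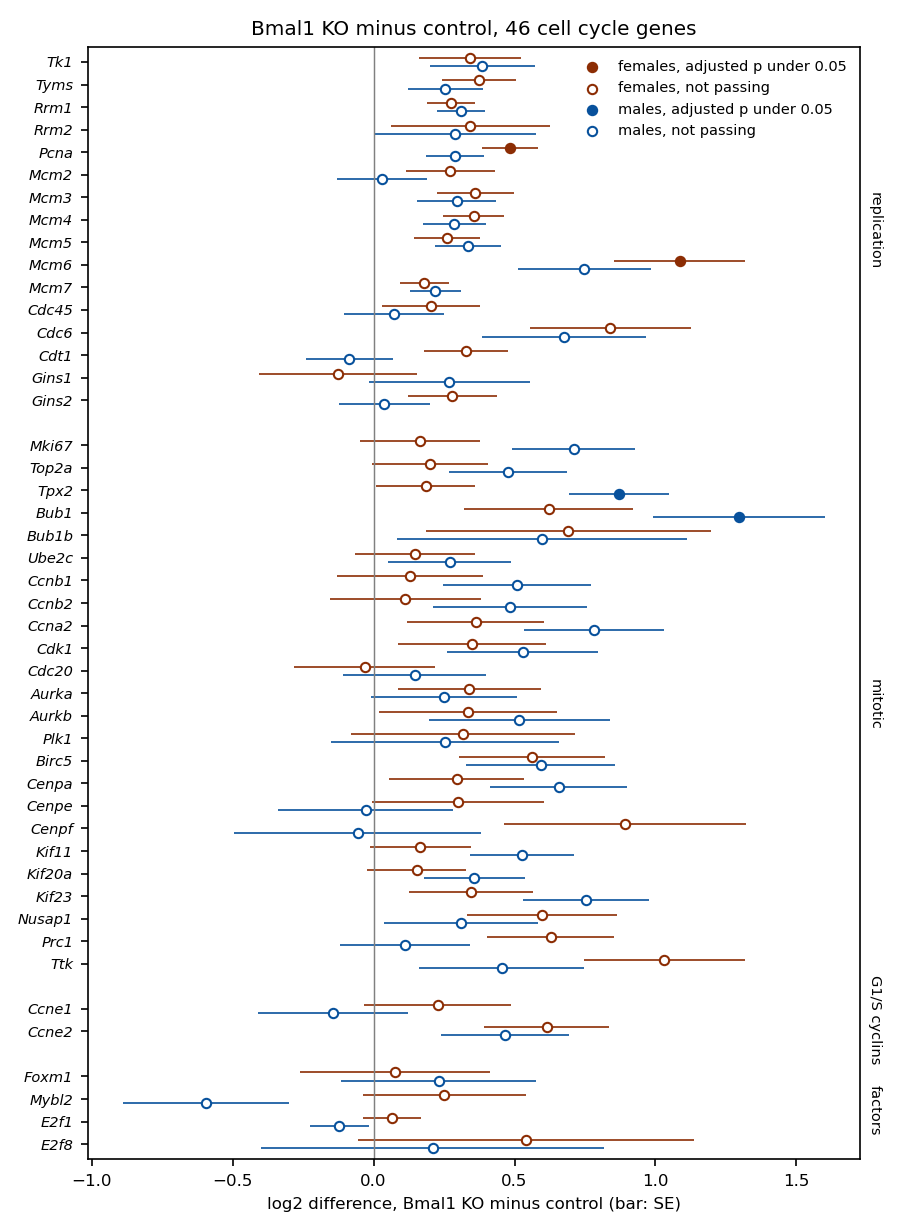
Bmal1 KO minus control log2 difference for each of the 46 genes (x axis, log2 scale), in females (brown) and males (blue), with SE as bars and filled points where the adjusted p was under 0.05. Only Pcna and Mcm6 in females and Tpx2 and Bub1 in males are filled, while 44 points in females and 40 in males lie above 0.

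Mcm6 (chr1:128331590-128359664, minus strand) encodes a subunit of the helicase ring. It read 735, 601, 502, 493 and 612 in control females and 917, 1532, 1018, 1584 and 1283 in Bmal1 KO females. Every Bmal1 KO female was above every control female, at a mean of 1267 ± 298 (SD, n = 5) against 589 ± 98.6 (n = 5). The log2 difference was 1.09 ± 0.23 (SE, 2.12-fold, limma adjusted p = 0.0141). In males Mcm6 read 1046, 846, 998 and 722 in Bmal1 KO animals and ran from 278 through a median of 533 to 880 in controls. The male groups overlapped, with a log2 difference of 0.75 ± 0.24 (adjusted p = 0.161), and the genotype effect was not shown to differ between the sexes (interaction 0.34 ± 0.33, adjusted p = 0.952). The female call was lost without the 2 control females of 1.5 months (1.03 ± 0.28, adjusted p = 0.0984) and among libraries of 2.4 to 3.7 months (adjusted p = 0.0775).

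The other MCM genes did not follow Mcm6 to the same extent. Per kilobase of exon, Mcm6 in females read 126 ± 21.1 (SD, n = 5) as control and 271 ± 63.9 (n = 5) as Bmal1 KO. Mcm2, Mcm3, Mcm4, Mcm5 and Mcm7 read 105 to 201 per kilobase in control females and 125 to 227 in Bmal1 KO females as group means. As proteins, the 6 subunits form 1 ring with 1 copy of each, which sets no expected ratio for their transcripts. The level of Mcm6 per kilobase over the mean of the other 5 was 0.82 ± 0.18 in control females and 1.43 ± 0.34 in Bmal1 KO females (SD, n = 5 each). Male animals had a ratio of 0.997 ± 0.37 (n = 6) as controls and 1.36 ± 0.25 (n = 4) as Bmal1 KO. The female ranges, 0.63 to 1.05 and 0.99 to 1.81, overlapped at their ends, and the male ranges, 0.45 to 1.46 and 1.14 to 1.59, overlapped. The ratio was not tested, and it depends on which exons are counted in a gene's length. Mcm6 was picked for its genotype call in these same female libraries, so a higher ratio in Bmal1 KO females was built in.

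**Figure D3:**
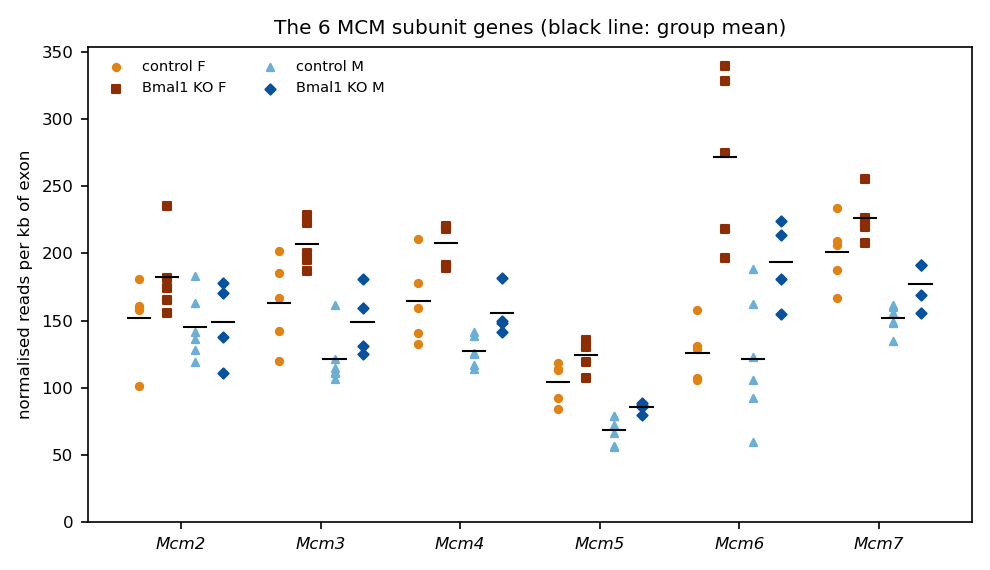
Normalised reads per kilobase of exon (y axis, linear from 0) for the 6 MCM subunit genes, with 1 point per library and a black line at each group mean. Mcm6 has a mean of 271 in Bmal1 KO females against 126 in control females, a wider gap than the other subunits show.

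Pcna (chr2:132249162-132253314, minus strand), the sliding clamp, read 1469, 1414, 1862, 1621 and 1682 in control females and 2125, 2087, 2181, 2495 and 2342 in Bmal1 KO females. The groups did not overlap, and the log2 difference was 0.48 ± 0.10 (SE, 1.40-fold, limma adjusted p = 0.0116). In males it read 1541, 1378, 1738 and 1826 in Bmal1 KO animals and ran from 1085 through a median of 1326 to 1597 in controls. These groups overlapped (0.29 ± 0.10, adjusted p = 0.245), and the interaction did not pass (0.20 ± 0.14, adjusted p = 0.920). The female call was lost among libraries of 2.4 to 3.7 months (0.51 ± 0.13, adjusted p = 0.0722).

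Reads of Pcna can be shared with the pseudogene Pcna-ps2, which ranged from 0 to 781 normalised reads across libraries of the same groups. In Bmal1 KO males, the pseudogene read 270 and 466 in replicates 1 and 2 and 5.43 and 3.24 in replicates 3 and 4. Both were summed as an alternative chosen after seeing the data. Control females had a sum of 1982 ± 86.5 (SD, n = 5) and Bmal1 KO females one of 2557 ± 192 (n = 5). Control males had 1476 ± 121 (n = 6) and Bmal1 KO males 1807 ± 44.7 (n = 4). The sums did not overlap between genotypes in females (1862 to 2079 against 2342 to 2868) or in males (1271 to 1606 against 1743 to 1844). No test is given for the sum, since it was formed for a gene already called in females.

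Tpx2 (chr2:152847964-152895321, plus strand), a spindle assembly factor that activates Aurora A, was the mitotic gene with the smallest adjusted p in males. It read 144, 132, 179 and 177 in Bmal1 KO males and ran from 67.7 through a median of 86.7 to 104 in control males. The groups did not overlap, and the log2 difference was 0.87 ± 0.18 (SE, 1.83-fold, limma adjusted p = 0.0132). In females it read 232, 151, 274, 229 and 188 in controls and 278, 177, 214, 250 and 299 in Bmal1 KO animals. The female groups overlapped over most of their range (0.18 ± 0.17, adjusted p = 0.776), and the interaction of genotype and sex, -0.69 ± 0.25, had an unadjusted p of 0.0123 and an adjusted p of 0.621. The male call was lost without Bmal1 KO male 3 (adjusted p = 0.0602) or 4 (0.0642) and among libraries of 2.4 to 3.7 months (0.0677).

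Bub1 read 57.4, 35.2, 58.7 and 66.9 in Bmal1 KO males, against the 13.8 to 39.7 of control males given above. One Bmal1 KO male, at 35.2, lay below the highest control. The log2 difference was 1.30 ± 0.31 (SE, 2.45-fold, limma adjusted p = 0.0349). In Bmal1 KO females it read 87.8, 99.9, 98.1, 134 and 69.9, which overlapped control females (0.62 ± 0.30, adjusted p = 0.431). The male call was the least firm of the 4: it was lost without control male 1, 3, 4 or 5 or Bmal1 KO male 1, 3 or 4 (adjusted p 0.0521 to 0.136). It was also lost among libraries of 2.4 to 3.7 months (0.0555), with the 2 male groups fitted alone (0.0936), and with limma-voom (0.0751).

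**Figure D4:**
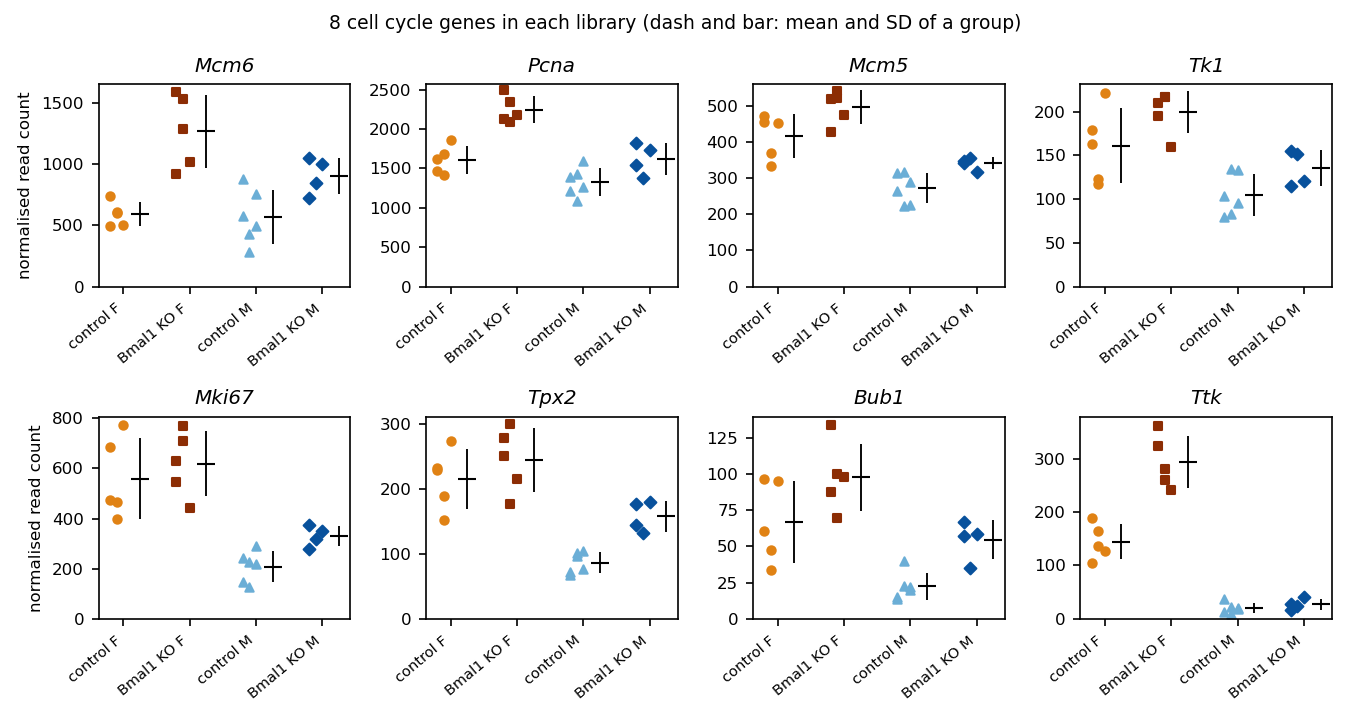
Normalised read counts (y axes, linear from 0) of 8 genes in every library by group, with the group mean and SD as a dash and bar. Mcm6 and Pcna separate the genotypes in females, Tpx2 separates them in males, and Ttk separates the sexes in both genotypes.

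Of genes that did not pass by genotype in limma, Ttk had the smallest p among mitotic genes in females. There all 5 Bmal1 KO libraries (242 to 361) were above all 5 control libraries (104 to 189). The log2 difference of Ttk was 1.03 ± 0.29 (SE, limma adjusted p = 0.0770). On the recovered reads the adjusted p was 0.0302 with edgeR, 0.00164 with limma-voom and 0.000505 with DESeq2. With limma it was 0.0134 with the 2 female groups fitted alone and 0.0631 with age as a covariate. It was 0.139 among libraries of 2.4 to 3.7 months and 0.264 without the 1.5-month controls. Rrm1, the large subunit of ribonucleotide reductase, had the smallest p among replication genes in males. It read 1198, 1151, 1020 and 1016 in Bmal1 KO males and ran from 827 through a median of 861 to 1013 in control males. The groups did not overlap, and the log2 difference was 0.31 ± 0.09 (limma adjusted p = 0.0924). DESeq2 gave an adjusted p of 0.0175 for Rrm1 in males. Genotypes did not overlap for 3 genes in females (Pcna, Mcm6 and Ttk, all higher, against 1.81% of all genes) and for 4 in males (Rrm1, Mcm5, Tpx2 and Aurkb, all higher, against 1.58%). Cdc6, the origin licensing factor, had log2 differences of 0.84 ± 0.28 and 0.68 ± 0.29 that did not pass (adjusted p = 0.175 and 0.382), on levels of 16.9 to 70.7 normalised reads.

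No interaction of genotype and sex passed for any of the 46 genes in limma (0 of 46, against 0.0301% of all genes), edgeR or DESeq2, and 1 gene, Tpx2, had an unadjusted p under 0.05, against 6.44% of all genes. The replication gene with the smallest p was Cdt1, the licensing factor, at 0.41 ± 0.21 (SE, limma adjusted p = 0.817). The median of the interaction, as the female minus the male genotype effect, was 0.09 over replication genes and -0.18 over mitotic genes. Among libraries of 2.4 to 3.7 months the mitotic median turned to 0.04, with 0.13 over replication genes, so the sign of the mitotic median depended on which libraries entered.

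Averaged by class, replication levels did not overlap between genotypes within a sex, while mitotic levels did, with a wider spread. The mean log2(normalised read count + 1) over the 16 replication genes was 8.32, 8.16, 8.47, 8.43 and 8.06 in control females and 8.60, 8.74, 8.54, 8.71 and 8.68 in Bmal1 KO females. In males it ran from 7.81 through a median of 7.96 to 8.08 in controls and was 8.35, 8.18, 8.18 and 8.21 in Bmal1 KO animals. Genotypes did not overlap in either sex, at means of 8.29 and 8.65 in females and 7.95 and 8.23 in males. Over the 24 mitotic genes it was 6.82, 6.68, 7.58, 7.58 and 7.03 in control females and 7.38, 7.58, 7.28, 7.59 and 7.70 in Bmal1 KO females. In males it ran from 5.85 through 6.05 to 6.50 in controls and was 6.73, 6.52, 6.71 and 6.36 in Bmal1 KO animals. Mitotic levels overlapped between genotypes in both sexes, at means of 7.14 (control) and 7.51 (Bmal1 KO) in females and 6.11 and 6.58 in males, so the gap between mitotic means was no smaller than that between replication means. These class means are descriptions and carry no test.

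**Figure D5:**
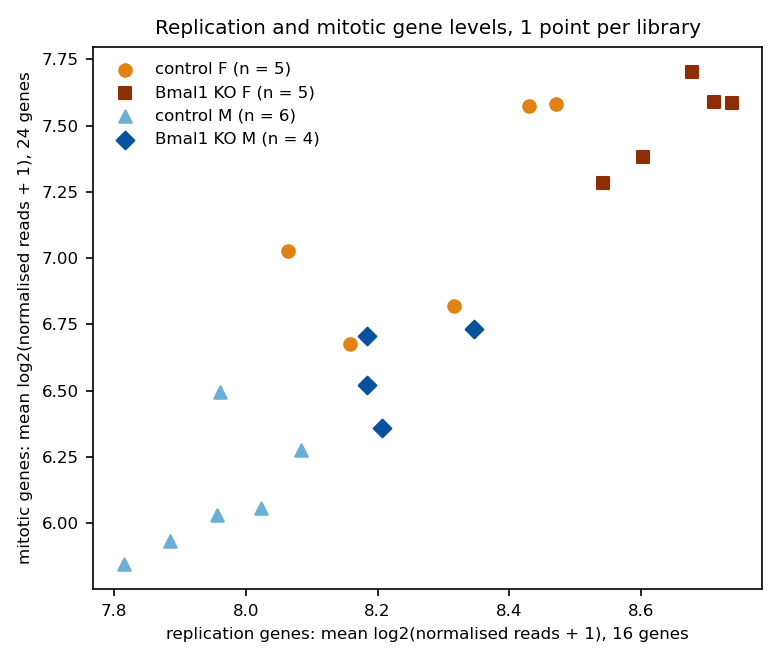
Mean log2(normalised reads + 1) of the 16 replication genes (x axis) and the 24 mitotic genes (y axis), 1 point per library in 4 groups. Bmal1 KO libraries lie to the right of controls of the same sex, with replication levels of 8.54 to 8.74 against 8.06 to 8.47 in females and 8.18 to 8.35 against 7.81 to 8.08 in males.

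The replication level minus the mitotic level of a library averaged 1.15 ± 0.32 (SD, n = 5) over control females, and over Bmal1 KO females 1.15 ± 0.11 (n = 5). Over control males it averaged 1.85 ± 0.20 (n = 6), and over Bmal1 KO males 1.65 ± 0.15 (n = 4). The sexes did not overlap in Bmal1 KO animals (0.97 to 1.26 in females, 1.48 to 1.85 in males). They overlapped at their ends in controls (0.85 to 1.50 in females, 1.47 to 1.97 in males). Control females 1 and 2, at the upper end, had mitotic levels of 6.82 and 6.68, the lowest of all females. Ages differed between the sexes, and the median age slope was -0.24 per month over mitotic genes and -0.01 over replication genes. The part of age in the gap between the sexes was not tested. Mitotic genes also varied more within groups: the coefficient of variation between libraries of a group had a median of 26.1% over mitotic genes and 16.1% over replication genes. Mitotic genes had lower levels, with group means of 6.11 to 7.51 against 7.95 to 8.65 for replication genes. Depth limits precision at low levels, and the part of level in this spread was not tested.

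Other cell cycle genes also included calls by genotype. Of all genes, 1.75% were called in either direction in females and 1.33% in males. Cdkn1a was higher in Bmal1 KO animals of both sexes. It read 481 ± 161 (SD, n = 5) in control females against 970 ± 193 (n = 5) in Bmal1 KO females, a log2 difference of 1.04 ± 0.19 (SE, limma adjusted p = 0.00461). In males it read 219 ± 36.9 (n = 6) against 583 ± 140 (n = 4), a difference of 1.39 ± 0.20 (limma adjusted p = 0.000406). Of the 40 further replication genes, Orc6, of the origin recognition complex (0.38 ± 0.07, adjusted p = 0.00817), and Topbp1, a replication and checkpoint scaffold (0.47 ± 0.10, adjusted p = 0.0175), rose in females. In males none passed in limma, while edgeR and DESeq2 each called 1. Of the 40 further mitotic genes, Hmgb2, a chromatin protein (0.40 ± 0.09, adjusted p = 0.0247), rose in females. In males none passed in limma or edgeR, while DESeq2 called 2. The inhibitor gene Cdkn1b, which encodes p27, fell in females (-0.46 ± 0.10, adjusted p = 0.0193). The lists' medians were 0.18 (further replication) and 0.16 (further mitotic) in females and 0.09 and 0.36 in males.

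Among cell type markers, 2 of 10 cortical genes, Star and Cyp11a1, were lower in Bmal1 KO males, and in Bmal1 KO females, of 4 X-zone markers, Thrb was higher and Cyp2f2 lower. The macrophage marker Mrc1, 1 of 7, was also lower in Bmal1 KO females. Of all genes, 1.33% were called in either direction in males and 1.75% in females. No lymphocyte, red blood cell or adipocyte marker passed by genotype in limma or edgeR. DESeq2 called 2 of 8 lymphocyte markers in females and 1 of 8 in males. It also called 1 of 10 cortical and 1 of 7 endothelial markers in females, and 1 of 6 adipocyte markers in males. The part of any of these cell types in the genotype differences of the 46 genes was not tested.

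No gene of the 46 changed with age within groups by the test (0 of 46, against 0% of all genes called). The slope had an unadjusted p under 0.05 for 11 of the 46, against 7.29% of all genes, and 8 of those were mitotic and lower in older animals. Ccna2, cyclin A, had the smallest p, with a slope of -0.40 ± 0.11 log2 units per month (SE, limma adjusted p = 0.583). Mcm7 had the smallest p among replication genes, with 0.11 ± 0.05 (adjusted p = 0.662). The median slope was -0.24 per month over mitotic genes and -0.01 over replication genes, against 0.01 over all genes. The replication median was above 0 in females alone (0.08). Adipocyte markers had steeper slopes, at a median of -1.78 over 6 genes, of which 5 had an unadjusted p under 0.05 and none passed in limma. Their part in the slopes of the mitotic genes was not tested.

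Some values may hold reads of other genes, because the sources used here do not state whether counting used strand. Exons of Gins2 shared 67.3% of their bases with Gse1 on the other strand, those of Kif20a 29.3% with Cdc23, of Ube2c 22.8% with Tnnc2, of Ccne2 17.4% with Ints8, of Ccna2 12.5% with Exosc9, of E2f8 11.2% with Gm2788 and of Prc1 11.1% with Rccd1. E2f8 was also the gene of the 46 with the fewest reads, down to 1 read in a control male, and its sex difference of 0.99 ± 0.63 (SE) in Bmal1 KO animals did not pass (limma adjusted p = 0.287).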

How the data were processed

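Whole adrenal RNA (Direct-zol) was made into TruSeq libraries, per the labels' protocols. The tools named in the submitters' processing notes are DESeq2, featureCounts, Salmon, MultiQC and FastQC, and the builds are GRCm38 and mm10. Their roles and versions, the aligner and the use of strand are not stated in the sources used here. The deposited signal, as the authors gave it, is 1 normalised value per gene and library. Every value was a whole multiple of 1 step per library (100% within 0.001 of a read), so the values are reads divided by a size factor.

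limma-trend (limma 3.58.1, R 4.3.3) modelled log2(value + 1) with 1 mean per group, for the 26612 genes that reached 1 in 4 or more of the 20 libraries. All 46 genes passed this filter. Fold changes are on that scale, which understates changes of low genes. p-values were adjusted over all genes tested (Benjamini-Hochberg), with calls under 0.05. Age was tested as 1 slope per month beside the group means. The fits were run on simulated data with planted log2 differences of at least 1 in size, so smaller differences were not checked. Positions are from GENCODE M21 on GRCm38 (47224 of 47729 identifiers), and lengths are exon unions. Promoter sequences are RefSeq's, GRCm38.p6. Total reads of 13421985 to 26742820 limit precision for low genes.

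The 46 genes and the lists were chosen with earlier results of these data known. Every gene of the 46 could be named. Values by library (the lowest, median and highest in the 6 control males) are given for those called by genotype, interaction or age, and for the 2 per class with the largest sex difference among called genes. Where a class had no call, the gene with the smallest p was taken, and from other lists at most the 4 largest calls. Alternatives were a pseudocount of 0.1, no filter, a minimum of 10, TMM factors, limma-voom, edgeR 4.0.16, DESeq2 1.42.0 (the last 3 on recovered reads; edgeR called 518 of 18387 genes by genotype in females and 401 in males), age as a covariate, libraries of 2.4 to 3.7 months, a replicate block, fits of 2 groups, and leaving out each library.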

Additional observations from a re-analysis of the deposited data

Results flagged for a closer look

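Of 184 combinations of gene and group tested, 8 had 1 library far from the rest by Dixon's criterion, and chance gives about 1 in 20. In control females, replicate 5 was lowest for Mcm2 (706 normalised reads, the next at 1100) and highest for Ccne1 (258, the next at 132). In control males, replicate 4 was highest for Cenpf (185, the next at 83.0) and E2f8 (61.6, the next at 21.98). Among the same males, replicate 5 was highest for Mcm3 (607, the next at 456), replicate 2 for Bub1 (39.7, the next at 22.9) and replicate 1 for Nusap1 (164, the next at 104). In Bmal1 KO males, replicate 3 was highest for Ccne1 (178, the next at 108).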

How the results depend on the processing

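No gene called by genotype or sex changed direction under any alternative run. Beside the 2 genes called by genotype in females, DESeq2 called 4, libraries of 2.4 to 3.7 months 0, and the fit without the 1.5-month controls 1; leaving out 1 library gave 2 to 3. In males, also 2, DESeq2 called 4, limma-voom 1, libraries of 2.4 to 3.7 months 0, and the 2 groups fitted alone 1; leaving out 1 library gave 0 to 3, with 0 without Bmal1 KO male 3 or 4. By sex in controls, 26 genes became 14 with age as a covariate and 16 among libraries of 2.4 to 3.7 months; leaving out 1 library gave 21 to 28. In Bmal1 KO animals that range was 16 to 24. Replication minus mitotic level with medians over genes was 1.57 (control) and 1.59 (Bmal1 KO) in females, and 2.20 (control) and 1.88 (Bmal1 KO) in males. The cause of these changes was not tested; the age range and left-out settings use fewer samples, while the age covariate keeps all 20 libraries. Deviations of same-numbered libraries from their group means had correlations of -0.07 to 0.14. Between female genotypes these were 0.01 to 0.14, and libraries 1, 2 and 4 correlated best with their own number. Between male genotypes all were below 0. These values do not settle whether the numbers pair libraries. With a replicate block, Bub1 lost its male call (limma adjusted p = 0.116) and Ccna2 gained one (0.0267). In that fit 24 of the 26 sex calls in controls and 21 of 26 in Bmal1 KO animals remained. Genes under 50 reads, such as E2f8, Cdc6 and Ttk in males, are limited by depth.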
